A study of Homo sapiens with 8 samples.

Results

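TMC6 and TMC8 are neighbouring human genes on chromosome 17 that lie head to head on opposite strands. They were taken by their symbols in the authors' deposited comparison tables and joined by Ensembl identifier (ENSG00000141524 for TMC6, ENSG00000167895 for TMC8) to the count tables of both cell lines, which gave 2 of 63677 genes. The pair was selected on its measured log2 fold change in MOLT-4 cells with ACBI-1, so the values of both genes in that comparison are given as a description, without a test.

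RNA sequencing measured the total RNA of DND-41 and MOLT-4, 2 established human lines derived from T-cell acute lymphoblastic leukaemias. The groups were MOLT-4 with 100 nM ACBI-1, MOLT-4 with the solvent DMSO, DND-41 labelled as ACBI-1 at 100 nM and DND-41 labelled as DMSO, each held for 24 h and each with 2 libraries. ACBI-1 belongs to the PROTAC class of degraders and links SMARCA2, SMARCA4 and PBRM1, proteins of chromatin remodelling complexes, to the ubiquitin ligase VHL for degradation. The labels do not say how the libraries of a group were made, so every p-value here rests on the spread between libraries that may be technical replicates.

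TMC6 and TMC8 belong to the transmembrane channel-like family and encode EVER1 and EVER2, membrane proteins found in lymphocytes and in skin keratinocytes. The proteins form a complex with CIB1, a small calcium- and integrin-binding protein, and have been tied to the zinc exporter ZnT-1, the product of SLC30A1. EVER2 also binds TRADD, the adaptor of TNF receptor 1. Inherited loss of TMC6, TMC8 or CIB1 causes epidermodysplasia verruciformis, a lasting susceptibility to skin-tropic human papillomaviruses.

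Sequence and annotation come first because the strand setting of the counting is not given in the sources used here, and reads of overlapping genes could then be assigned to either gene. In GENCODE release 29 (GRCh38, not the hg19 build of the counts), TMC6 spans chr17:78110458-78132407 on the minus strand with 8669 exon bases in 21 blocks. TMC8 spans chr17:78130770-78142968 on the plus strand with 5459 exon bases in 16 blocks. The spans overlap by 1638 bases at the 5′ ends, where the exons of both genes share 231 bases on opposite strands. These are 2.66% of the exon bases of TMC6 and 4.23% of those of TMC8. A further gene on the strand of TMC6, TNRC6C-AS1, shares 1342 bases with TMC6 exons, 15.5% of them, but had only 2 to 90 counts per library.

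The 2 paralogs share only short identical stretches in their coding parts. The longest stretch that the coding parts of both genes have in common on the same strand is 13 bases, against reads of 100 bases. It is shown in capitals throughout because every base is shared (TMC6 and TMC8, chromosome 17, GRCh38).
coding parts: CCTGGCCTACCTC

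A window upstream of a RefSeq start of TMC6 is shown as sequence background, and its part in the values of the pair was not tested. The window lies inside the GENCODE span of TMC6, so this start is an internal one. The window was taken as the lower in coordinate of 2 TMC6 windows, not by its distance from TMC8. Motif sites in the other were not listed, and no window of TMC8 was available. RefSeq (GRCh38.p14) places a TMC6 start 2015 bases from the annotated start of TMC8, and the 250 bases before it lie at chr17:78128756-78129005 on the minus strand. They are 71.6% G and C. The capitals mark the letters CACGTG, the E-box, and CGGAAG, the core of ETS factor sites.
TMC6 upstream: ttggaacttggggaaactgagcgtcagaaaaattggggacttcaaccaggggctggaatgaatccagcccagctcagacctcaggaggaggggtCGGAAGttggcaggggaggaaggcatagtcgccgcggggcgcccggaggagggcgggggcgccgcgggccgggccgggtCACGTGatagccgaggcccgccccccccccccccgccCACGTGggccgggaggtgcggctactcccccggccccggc
Each motif was searched on both strands in the 300-base window that runs past this start. CACGTG occurred 2 times, at -77 and -40 from the start, and was present in 7.26% of 35116 RefSeq windows of the same length. CGGAAG occurred once, at -156, and was present in 19.5% of windows. The GC box GGGCGG occurred 3 times, at -106, -60 and -45, and its last copy ends on the first base of the second E-box; 45.0% of windows held it. The RUNX letters TGTGGT, held by 13.1% of windows, were not found in this one. Neither were the letters AGATAA of GATA factors, in 10.3% of windows, nor GTGGGAA of RBPJ, in 6.25%.

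The DND-41 libraries did not group by their treatment labels. The authors' deposited DND-41 table equals the fold change of the libraries numbered 2 over those numbered 1 in 100% of 27069 genes, within 0.001 on the log2 scale, and the contrast of the treatment labels in 0.151% of them. In MOLT-4 the authors' deposited table equals the contrast of the labels, with ACBI-1 as numerator, in 100% of 27777 genes. The sources used here do not settle which assignment of the DND-41 libraries is right, so each DND-41 result is given as labelled, and beside it the deposited table by library number. Total counts were 21308737 to 22067644 per library, and the MOLT-4 count columns carry the unexplained suffix "redo". Of 7 T-cell leukaemia markers, 5 reached 1 CPM (counts scaled to TMM-adjusted library totals) in DND-41 and 6 in MOLT-4, while all 5 myeloid markers stayed under 1 CPM. TAL1 and PTCRA were near 0 in DND-41 and TLX3 had 0 counts in MOLT-4. These markers moved in MOLT-4 too, with a median log2 fold change of -1.42. Of 6 tested, 1 was higher and 4 lower, beside 28.2% and 30.2% of all genes. They summed to 1587 to 1684 CPM with ACBI-1, against 2413 to 2419 CPM with DMSO. Their part in the values of the pair was not tested. The summed level of 5 B-cell markers was 178 to 691 CPM in DND-41 labelled ACBI-1 and 209 to 738 CPM in DND-41 labelled DMSO, nearly all of it CD79A with MS4A1 at 0, and 0.785 to 0.837 CPM in MOLT-4 with ACBI-1, against 5.30 to 5.41 CPM in MOLT-4 with DMSO.

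TMC8 nearly vanished from the MOLT-4 libraries with ACBI-1. It had 27 and 35 counts with ACBI-1, against 1916 and 1889 counts with DMSO. The scaled levels were 1.25 and 1.62 CPM with ACBI-1, against 94.8 and 93.7 CPM with DMSO. Both ACBI-1 libraries lay far below both DMSO libraries, and the libraries of each group lay close together. The edgeR log2 fold change was -6.03 (SE 0.0990, n = 2 each), 65.3-fold lower, and the authors' deposited table gives -6.05 (SE 0.202). In these bulk libraries, fewer cells with TMC8 transcripts and less TMC8 RNA per cell cannot be told apart.

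TMC6 was lower too, by a smaller factor. It had 136 and 142 counts with ACBI-1, against 1084 and 1132 counts with DMSO, which is 6.32 and 6.55 CPM with ACBI-1, against 53.7 and 56.2 CPM with DMSO. The groups did not overlap and the spread within each was small. The log2 fold change was -3.09 (SE 0.0812, n = 2 each), 8.51-fold lower, and the authors' deposited table gives -3.10 (SE 0.134). Across all genes tested in this comparison, 58.4% passed an edgeR adjusted p of 0.05, 30.2% as lower and 28.2% as higher (4413 and 4120 genes). When totals alone set the scale, 3031 were lower and 5804 higher. The log2 fold change of TMC8 was 2.94 below that of TMC6 (-2.94), and since the contrast chose the pair this gap carries no test.

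**Figure D1:**
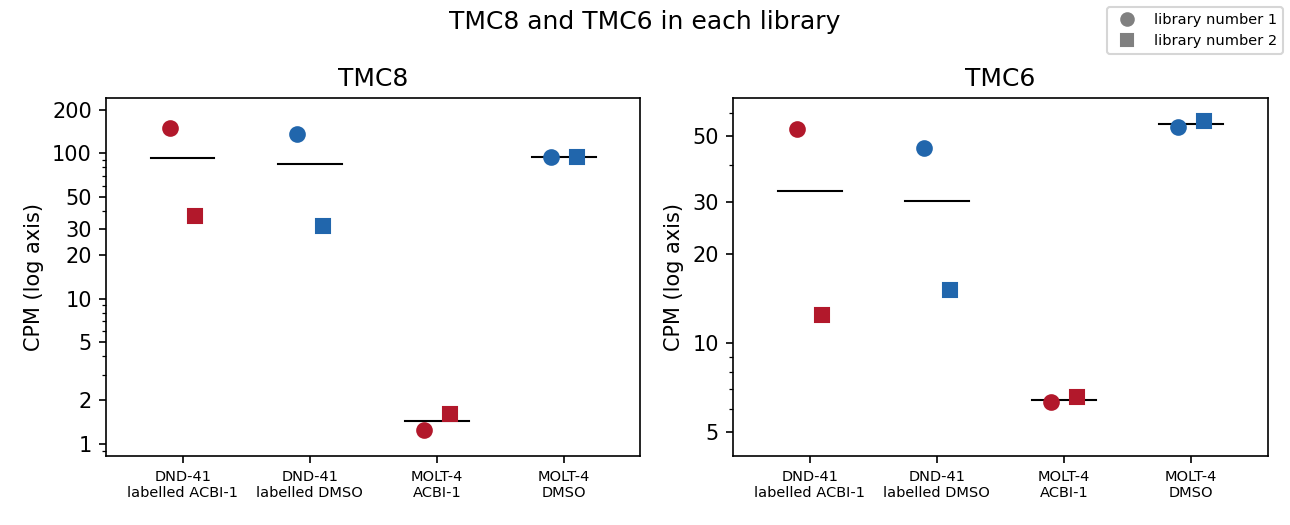
Level of TMC8 and TMC6 in CPM (log axis, which differs between the panels) in each of the 8 libraries by line and treatment label, with circles for libraries numbered 1, squares for those numbered 2 and a bar at the group mean. The MOLT-4 ACBI-1 libraries sit at 1.25 and 1.62 CPM for TMC8 and at 6.32 and 6.55 CPM for TMC6, below every other library, while the DND-41 libraries split by number.

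In DND-41, the level of TMC8 split by library number. It had 3186 and 874 counts in the libraries labelled ACBI-1, against 2908 and 739 counts in those labelled DMSO, or 149 and 37.0 CPM labelled ACBI-1, against 136 and 31.5 CPM labelled DMSO. Library 1 of each label was high, library 2 of each was low, and the labelled groups overlapped, although within each number the library labelled ACBI-1 was the higher. The labelled log2 fold change was 0.15 (SE 0.967, n = 2 each), with an edgeR adjusted p of 0.99998. TMC6 showed the same split, with 52.8 and 12.5 CPM in the libraries labelled ACBI-1, against 45.6 and 15.1 CPM in those labelled DMSO. Its labelled log2 fold change was 0.10 (SE 0.877, n = 2 each), with an edgeR adjusted p of 0.99998. The same edgeR test called 0 of 14602 genes in labelled DND-41 (0%), and 37 had an unadjusted p under 0.05. DESeq2 called 0 as well, with 10 at an unadjusted p under 0.05. Each labelled group holds 1 library of each number, so these tests count the split by number as spread within the groups. They therefore say little about the labels. With the library number as a block, 777 genes passed as higher and 572 as lower, and the closing section gives both genes in that fit.

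By library number, both genes were lower in the DND-41 libraries numbered 2 than in those numbered 1. The authors' deposited table gives a log2 fold change of -2.07 (SE 0.107) for TMC8. For TMC6 the authors' deposited table gives -1.85 (SE 0.145). The gap between the genes in that table, -0.22, is much narrower than the -2.94 that the authors' deposited table gives in MOLT-4, and no test of that difference was run. CD79A moved with the library number as well, at 688 and 177 CPM in the libraries labelled ACBI-1, against 734 and 207 CPM in those labelled DMSO. Of 5 T-cell leukaemia markers in the deposited DND-41 table, 2 passed as higher and 3 as lower, beside 15.2% and 21.6% of all genes. They ranged from CD7 at -2.43 to CD3E at 0.46. The part of these markers in the values of the pair was not tested.

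Ordered by the group mean, TMC8 averaged 94.3 ± 0.780 CPM in MOLT-4 with DMSO, 93.2 ± 79.5 CPM in DND-41 labelled ACBI-1, 83.8 ± 73.9 CPM in DND-41 labelled DMSO and 1.44 ± 0.255 CPM in MOLT-4 with ACBI-1 (SD, n = 2 each). Neighbours in the order among MOLT-4 with DMSO and both DND-41 groups did not differ beyond their spread. TMC6 kept the same order, with 54.9 ± 1.78 CPM in MOLT-4 with DMSO, 32.7 ± 28.5 CPM in DND-41 labelled ACBI-1, 30.3 ± 21.6 CPM in DND-41 labelled DMSO and 6.44 ± 0.165 CPM in MOLT-4 with ACBI-1 (SD, n = 2 each). For both genes the last group stood apart from the third by slightly more than the SD of DND-41 labelled DMSO, and by many times its own SD.

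Between the lines, the DMSO values of the pair are a description too, since the MOLT-4 DMSO libraries entered the contrast that chose it. TMC6 had 53.7 and 56.2 CPM in MOLT-4, against 45.6 and 15.1 CPM in DND-41 labelled DMSO, and both MOLT-4 libraries were above both DND-41 libraries. The log2 fold change was 0.85 (SE 0.530, n = 2 each), in a comparison where 35.1% of 15069 genes passed the edgeR test. That value depends on the DND-41 library used as the reference: it was 1.87 without DND-41 DMSO library 1 and 0.25 without library 2. For TMC8, 94.8 and 93.7 CPM in MOLT-4 fell between the 136 and 31.5 CPM of DND-41 labelled DMSO, with a log2 fold change of 0.16, which was 1.59 without DND-41 DMSO library 1 and -0.55 without library 2.

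The share of each gene in the counts of the pair shows how far the genes moved apart. In MOLT-4 with ACBI-1, TMC8 held 16.6% (95% exact binomial interval 11.2% to 23.2%) and 19.8% (14.2% to 26.4%) of the summed TMC6 and TMC8 counts. With DMSO it held 63.9% (62.1% to 65.6%) and 62.5% (60.8% to 64.3%). TMC8 thus held under 50% of the counts in both ACBI-1 libraries and over 50% in both DMSO libraries, which is a description, since the contrast chose the pair. These intervals cover counting error only, since reads are not independent molecules. Over the pooled libraries of a group, the TMC8 share was 18.2% (14.3% to 22.8%) with ACBI-1 and 63.2% with DMSO.

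In DND-41 the share hardly moved although the levels differed several-fold between libraries. TMC8 held 73.9% (72.5% to 75.2%) and 74.8% (72.2% to 77.2%) in the libraries labelled ACBI-1. It held 74.9% (73.5% to 76.3%) and 67.7% (64.8% to 70.4%) in those labelled DMSO. The intervals of 3 of the 4 libraries overlapped, and the library numbered 2 of those labelled DMSO lay below them. TMC8 therefore made up more of the pair in every DND-41 library than in any MOLT-4 library.

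Read as the rule for the pair asks, TMC6 counts were 504% and 406% of TMC8 counts in MOLT-4 with ACBI-1, against 56.6% and 59.9% with DMSO. In DND-41 they were 35.4% and 33.8% of TMC8 counts in the libraries labelled ACBI-1, against 33.5% and 47.8% in those labelled DMSO. Per line, TMC6 counts were 64.5% of TMC8 counts in MOLT-4 and 35.7% in DND-41, and over all 8 libraries 45.3%. In the other direction, the 27 and 35 TMC8 counts of MOLT-4 with ACBI-1 were 19.9% and 24.6% of the TMC6 counts in the same libraries. How many of these counts are reads of the opposite gene was not tested. The exons share 231 bases and the gene spans overlap by 1638 bases, in an annotation on another build than the counts. The 231 bases therefore set no bound on such reads.

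Per kilobase of exon, TMC8 exceeded TMC6 in 6 of the 8 libraries. The ratio of TMC8 to TMC6 per kilobase was 0.315 and 0.391 in MOLT-4 with ACBI-1, against 2.81 and 2.65 with DMSO. It was 4.49 and 4.70 in DND-41 labelled ACBI-1, against 4.74 and 3.32 in DND-41 labelled DMSO. Scaling for length thus left the order of the pair as in the counts in every library.

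**Figure D2:**
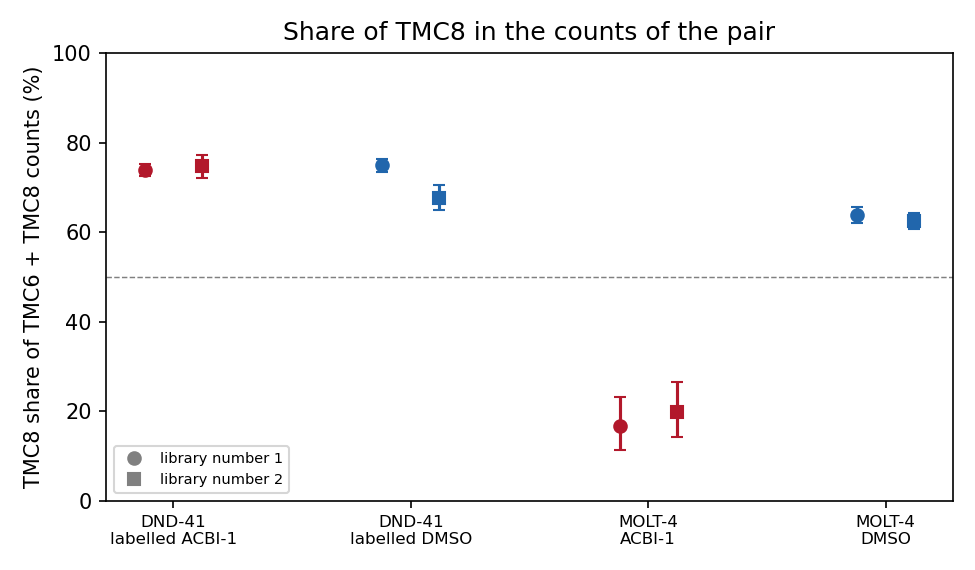
Share of TMC8 in the summed TMC6 and TMC8 counts, in percent, per library, with 95% exact binomial intervals; circles are libraries numbered 1, squares those numbered 2, and the dashed line marks equal counts. The MOLT-4 ACBI-1 libraries sit at 16.6% and 19.8%, and the other 6 libraries between 62.5% and 74.9%.

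The other 6 members of the TMC family were hardly expressed. On the scale of CPM per kilobase of exon, TMC8 was at 0.230 and 0.296 in MOLT-4 with ACBI-1, against 17.4 and 17.2 with DMSO, and TMC6 at 0.729 and 0.756 with ACBI-1, against 6.19 and 6.48 with DMSO. TMC4 followed with 0.501 and 0.422 with ACBI-1, against 0.388 and 0.243 with DMSO, so that with ACBI-1 TMC8 was below TMC4. TMC1, a hair-cell channel gene of the inner ear, had 0 counts in all 8 libraries, which allows up to 0.149 CPM in a library at a limit of 3 counts.

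Of the 2 other family members tested in MOLT-4, 1 passed as higher and 0 as lower, beside 28.2% and 30.2% of all genes. Their median log2 fold change was 0.77, against 0.01 over all 14618 genes. TMC7 had 21 and 22 counts with ACBI-1, against 13 and 7 counts with DMSO, with a log2 fold change of 1.0005 (SE 0.393) and an edgeR adjusted p of 0.0271. That call was lost in DESeq2, at an adjusted p of 0.311, and the library with 7 counts decides much of the value: without it the log2 fold change was 0.62, at an edgeR adjusted p of 0.303. TMC4 had 33 and 28 counts with ACBI-1, against 24 and 15 counts with DMSO, with an edgeR adjusted p of 0.133.

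**Figure D3:**
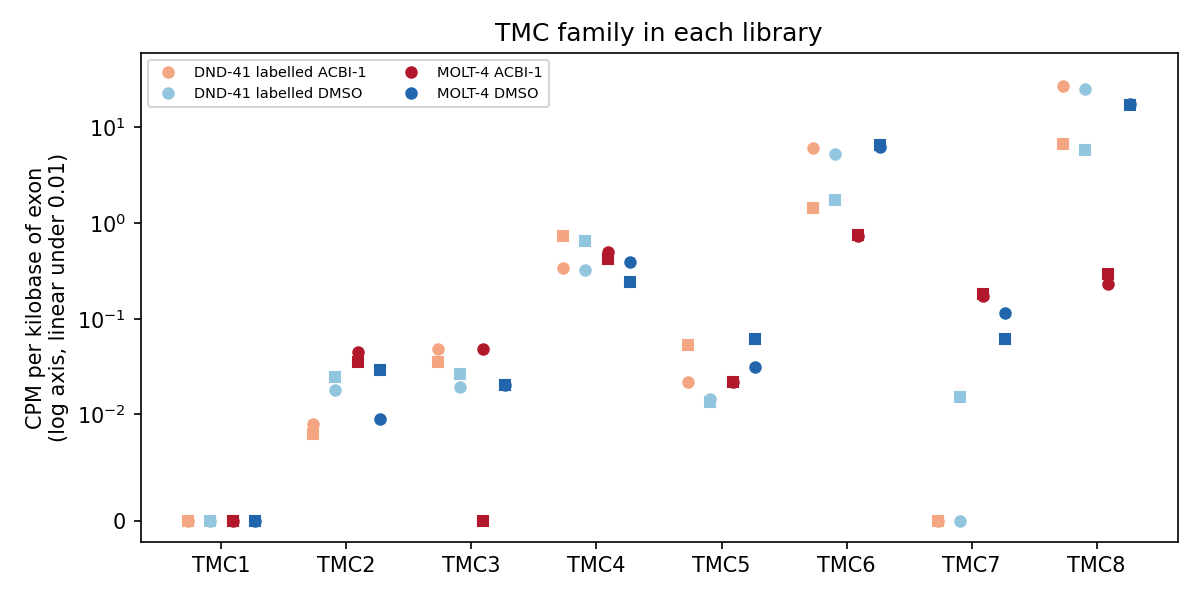
Level of the 8 TMC family genes per library in CPM per kilobase of exon (log axis, linear under 0.01), coloured by line and treatment label; circles are libraries numbered 1, squares those numbered 2. TMC8 and TMC6 lead in every library except those of MOLT-4 with ACBI-1, where TMC8, at 0.230 and 0.296, sits below TMC4, at 0.501 and 0.422.

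Among the 3 protein partners of the EVER proteins, CIB1 fell with ACBI-1 in MOLT-4, and SLC30A1 and TRADD did not pass the test. That is 1 of 3 lower and 0 higher, beside 30.2% and 28.2% of all genes, so the count is near the share over all genes. CIB1 had 22.9 and 21.9 CPM with ACBI-1, against 79.1 and 86.9 CPM with DMSO, and the groups did not overlap. Its log2 fold change was -1.89 (SE 0.0610), 3.70-fold lower, with an edgeR adjusted p of 2.98e-28. When all 8 libraries share 1 estimate of the spread, which then includes the split of DND-41 by library number, the edgeR adjusted p of CIB1 was 0.196, and calls in MOLT-4 dropped to 250 higher and 294 lower genes. Of the other genes named below as past the threshold in MOLT-4, MT1G, SEC14L1 and TNRC6C passed in that fit too and the rest did not.

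The zinc exporter gene SLC30A1 had 19.4 and 17.6 CPM with ACBI-1, against 18.6 and 19.5 CPM with DMSO. Its groups overlapped, at a log2 fold change of -0.04 (SE 0.0826) and an edgeR adjusted p of 0.714. TRADD had 12.9 and 11.2 CPM with ACBI-1, against 11.1 and 11.4 CPM with DMSO, at a log2 fold change of 0.10 and an edgeR adjusted p of 0.432. The median log2 fold change of the 3 partners was -0.04, against 0.01 over all genes tested.

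In DND-41, CIB1 split by library number as the pair did. It had 45.7 and 12.9 CPM in the libraries labelled ACBI-1, against 50.2 and 15.8 CPM in those labelled DMSO. As labelled, its log2 fold change was -0.18 at an edgeR adjusted p of 0.99998. There 0 of the 3 partners passed, as did 0 of all 14602 genes tested. For the libraries numbered 2 over those numbered 1, the authors' deposited table gives -1.75 (SE 0.143) for CIB1 at an adjusted p of 1.57e-32. The same authors' deposited table gives -0.63 for SLC30A1 at an adjusted p of 9.32e-06 and 0.08 for TRADD at 0.777. In the authors' deposited table, 21.6% of 14883 genes passed as lower and 15.2% as higher.

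Other genes whose inherited loss goes with severe warts or papillomavirus infection moved in both directions in MOLT-4. The list of 7 includes CIB1, which is also a partner, and 3 passed as higher, 3 as lower and 1 did not pass, where 28.2% of all genes passed as higher and 30.2% as lower, with a median log2 fold change of 0.03. CORO1A, which encodes the actin regulator coronin-1A of lymphocytes, had 91.0 and 90.6 CPM with ACBI-1, against 401 and 395 CPM with DMSO. The groups lay far apart, with a log2 fold change of -2.13 (SE 0.0391) and an edgeR adjusted p of 2.89e-37. RASGRP1, which activates RAS below the T-cell receptor, had 93.7 and 95.0 CPM with ACBI-1, against 60.3 and 61.1 CPM with DMSO, a log2 fold change of 0.64 at an edgeR adjusted p of 2.01e-15.

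The smaller changes of that list are named here after their values were seen. LCK, the T-cell receptor kinase, was 0.24 and RHOH, a lymphocyte GTPase, 0.16 higher on the log2 scale, at edgeR adjusted p-values of 1e-07 and 0.000803. DOCK8, an exchange factor of the actin skeleton, was lower at -0.24 with an edgeR adjusted p of 0.000284, and STK4, a kinase of lymphocyte survival, did not pass at 0.03 and 0.515. The DOCK8 call was lost when totals alone set the scale (edgeR adjusted p 0.0597), the RHOH call without the low-count filter (0.0521), and STK4 passed with total scaling (0.000605). Leaving out ACBI-1 library 2 (0.0537) or DMSO library 1 (0.0623) also ended the DOCK8 call, and leaving out DMSO library 2 that of RHOH (0.0804). With all 8 libraries in the fit, the edgeR adjusted p of CORO1A was 0.167 and that of RASGRP1 0.178.

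In DND-41, CORO1A also went with the library number, at 747 and 209 CPM in the libraries labelled ACBI-1, against 768 and 240 CPM in those labelled DMSO. As labelled, 0 of the 7 genes passed, as did 0 of all 14602 genes tested. For the libraries numbered 2 over those numbered 1, the authors' deposited table gives a log2 fold change of -1.77 for CORO1A and 0.51 for RASGRP1. In the list it counts 3 higher, 3 lower and 1 not passed, beside 15.2% of all genes higher and 21.6% lower.

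**Figure D4:**
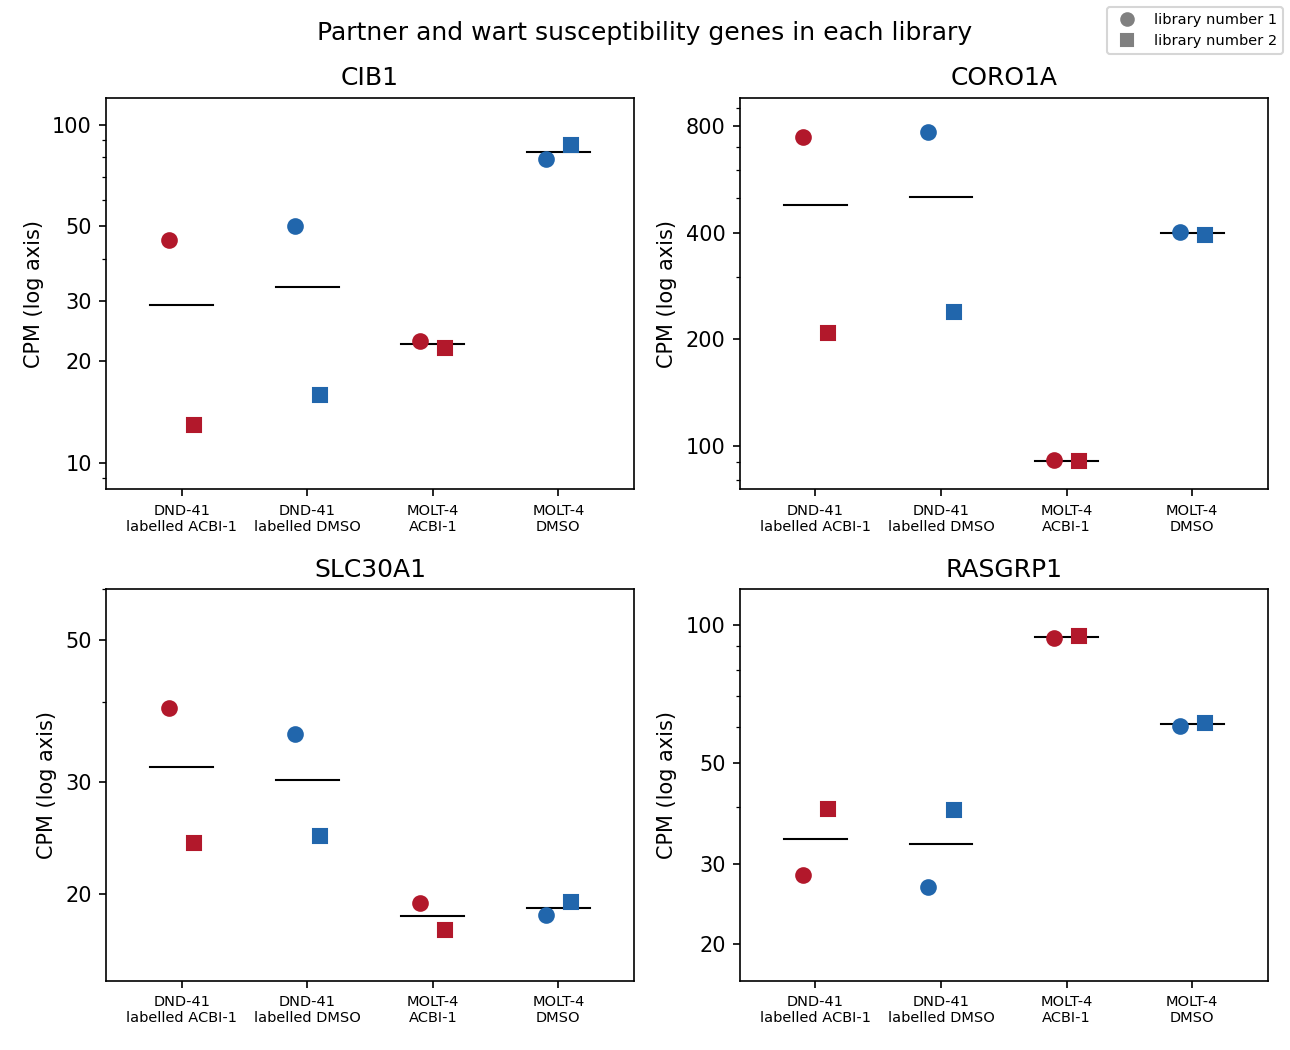
Level of the partner genes CIB1 and SLC30A1 and the wart susceptibility genes CORO1A and RASGRP1 in CPM (log axis) in each library; circles are libraries numbered 1, squares those numbered 2, and bars the group means. In MOLT-4, CIB1 and CORO1A are lower with ACBI-1, RASGRP1 is higher, at 93.7 and 95.0 CPM against 60.3 and 61.1 CPM, and the groups of SLC30A1 overlap.

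Zinc transport and zinc response genes were taken because of the reported tie between the EVER proteins and ZnT-1. Of 6 tested zinc exporters, 1 passed as higher and 3 as lower in MOLT-4, near the 58.4% of all genes that passed in either direction, with a median log2 fold change of -0.11. SLC30A4, an exporter of internal vesicles, had 18.9 and 18.7 CPM with ACBI-1, against 13.5 and 13.2 CPM with DMSO (log2 fold change 0.49, edgeR adjusted p 5.23e-06). The Golgi exporters SLC30A6 and SLC30A7 were at -0.22 and -0.25, and both lost the call when totals alone set the scale (edgeR adjusted p 0.106 and 0.0763) and without the low-count filter (0.0511 and 0.0710). Leaving out ACBI-1 library 1 (0.0501) or DMSO library 1 (0.0627) ended the call of SLC30A6, and leaving out ACBI-1 library 2 (0.0621) that of SLC30A7. Of 11 zinc importers, 2 passed as higher and 2 as lower, fewer than the 58.4% of all genes, with a median of 0.06. The higher call of SLC39A1, named after its values were seen (log2 fold change 0.14, edgeR adjusted p 0.0146), was lost in DESeq2 (0.209) and without the low-count filter (0.251), and has an adjusted p of 0.212 in the authors' deposited table. Leaving out ACBI-1 library 1 (0.197), DMSO library 1 (0.0815) or DMSO library 2 (0.155) ended it as well.

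The importer gene SLC39A8 had 101 and 99.2 CPM with ACBI-1, against 142 and 144 CPM with DMSO (log2 fold change -0.51, edgeR adjusted p 3.28e-14), and SLC39A13 was higher at 0.36. Of 4 tested genes among the zinc sensor MTF1 and the metallothioneins, which bind zinc, 3 fell and 1 did not pass, beside 30.2% of all genes lower, with a median of -0.70. MT1X had 7.16 and 6.23 CPM with ACBI-1, against 14.4 and 12.3 CPM with DMSO, a log2 fold change of -0.99 at an edgeR adjusted p of 6.61e-10. MTF1 was at -0.40 (2.98e-06), and MT1G, named after its values were seen, had 4 and 3 counts with ACBI-1, against 69 and 76 with DMSO. With all 8 libraries in the fit, the edgeR adjusted p-values were 0.110 for MT1X and 0.223 for MTF1.

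As labelled, 0 genes of the zinc lists passed in DND-41, as did 0 of all 14602 genes tested. In the authors' deposited table, 0 exporters passed as higher and 3 as lower, 1 importer as higher and 3 as lower, and 1 of 3 genes of the metallothionein list as lower, beside 15.2% of all genes higher and 21.6% lower. Of the 8 genes of TNF receptor 1 signalling, the pathway of TRADD, 4 passed as higher and 2 as lower in MOLT-4, beside 28.2% and 30.2% of all genes, with a median of 0.19. BIRC3, a ubiquitin ligase of the receptor complex, had 31.7 and 39.0 CPM with ACBI-1, against 18.9 and 17.6 CPM with DMSO, a log2 fold change of 0.96 at an edgeR adjusted p of 8.31e-14. The receptor gene TNFRSF1A was at -0.62 (3.66e-13) and the kinase gene RIPK1 at 0.49 (7.33e-10).

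Of the nearest protein-coding genes on either side, 5 each, the 8 that were tested changed less than the pair in MOLT-4. That order is a description only, since the pair was chosen on this contrast and the neighbours were not. Of these, 4 passed as higher, 2 as lower and 2 did not pass, beside 28.2% and 30.2% of all genes, with a median log2 fold change of 0.09. The non-coding gene TNRC6C-AS1, which shares exon bases with TMC6, had 2 and 14 counts with ACBI-1, against 38 and 33 with DMSO, a log2 fold change of -2.23 (edgeR adjusted p 6.92e-06). It was -1.43 without ACBI-1 library 1 and -4.15 without ACBI-1 library 2, and the call was lost without the low-count filter (0.0857). How many of these counts are reads of TMC6 was not tested. TNRC6C, the next gene on the side of TMC6 and a component of microRNA silencing, had 119 and 115 CPM with ACBI-1, against 181 and 174 CPM with DMSO. Its log2 fold change was -0.60 (edgeR adjusted p 8.33e-17), and no tested neighbour was lower than that. The next tested gene on the side of TMC8, SYNGR2, a synaptogyrin of cytoplasmic vesicles, had 88.2 and 77.9 CPM with ACBI-1, against 88.4 and 90.3 CPM with DMSO, and did not pass at -0.10 (edgeR adjusted p 0.0724). Without ACBI-1 library 1 it passed, at -0.19 (0.0143).

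MFSD11 and SEC14L1 were higher, at 0.74 (edgeR adjusted p 5.39e-13) and 0.59 (1.37e-14). SEPT9, a septin gene, was higher at 0.17 and TK1, thymidine kinase, at 0.26, and AFMID was lower at -0.35. BIRC5, the gene of survivin, did not pass at 0.01, but did with total scaling (edgeR adjusted p 0.00385), and the TK1 call was lost without the low-count filter (0.0604). MGAT5B and C17orf99, the closest gene to TMC8 on its far side, had at most 0.683 CPM in any library and were not tested in MOLT-4.

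By library number in DND-41, the authors' deposited table counts 2 neighbours higher, 3 lower and 4 not passed of 9. Over all 14883 genes of that table, 15.2% passed as higher and 21.6% as lower. SYNGR2 was at -1.47 (SE 0.109) and SEPT9 at 1.35 (SE 0.0687) in the authors' deposited table, so that neighbours of the pair differed there in both directions. The SYNGR2 levels behind it were 82.7 and 29.4 CPM in the libraries labelled ACBI-1, against 86.3 and 32.2 CPM in those labelled DMSO, the same high and low pattern as TMC8. TNRC6C, at 124 and 125 CPM labelled ACBI-1, against 107 and 105 CPM labelled DMSO, did not split by number.

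**Figure D5:**
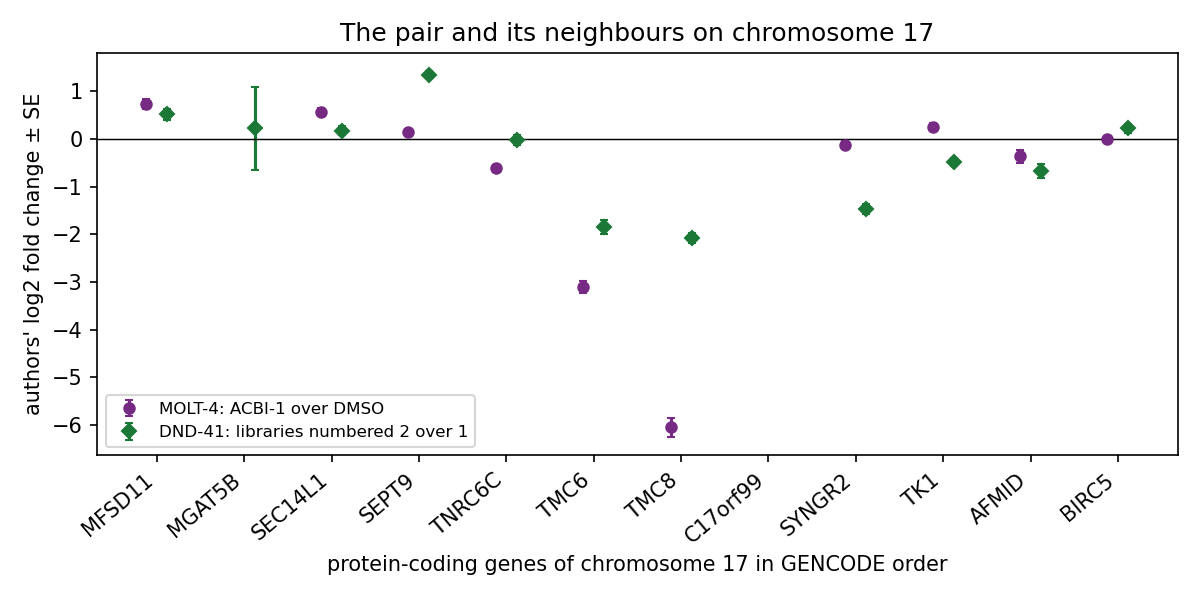
The authors' log2 fold changes (± SE) from the deposited tables for TMC6, TMC8 and the 5 protein-coding genes on either side in annotation order, for MOLT-4 as ACBI-1 over DMSO and for DND-41 as libraries numbered 2 over 1; genes without an adjusted p in a table are left blank. TMC8 and TMC6 stand at -6.05 and -3.10 in MOLT-4, where TNRC6C has the lowest value of the neighbours, and at -2.07 and -1.85 in DND-41, where SYNGR2 is at -1.47 and SEPT9 at 1.35.

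Likeness of pattern was measured as Pearson's r of log2(CPM + 1) over the 8 libraries, among 10447 genes with a symbol and a mean of at least 5 CPM. It is a description, because the 8 points share their line, treatment label, library number and scaling. Of these points, 4 are the MOLT-4 libraries of the contrast that chose the pair. For TMC8 the MOLT-4 ACBI-1 libraries, at 1.25 and 1.62 CPM, lie far below every other library and weigh heavily in r. The genes nearest to TMC8 were DERL1, GATC, CD48, C6orf62 and LCP2, with r of 0.991 to 0.998. CD48, a surface receptor of lymphocytes, had 0.558 and 0.785 CPM in MOLT-4 with ACBI-1, against 20.4 and 22.2 CPM with DMSO. It was 31.4-fold lower, a smaller factor than the 65.3-fold of TMC8. LCP2, the adaptor SLP-76 of the T-cell receptor, had 29.1 and 31.7 CPM with ACBI-1, against 128 and 122 CPM with DMSO. DERL1 ranged far less, with 51.8 and 52.3 CPM with ACBI-1, against 66.6 and 66.4 CPM with DMSO.

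Nearest to TMC6 were SNAPC3, CD82, TIMM22, NIF3L1 and OSBPL8, with r of 0.993 to 0.996. CD82, a tetraspanin of the cell surface, had 16.0 and 18.5 CPM in MOLT-4 with ACBI-1, against 117 and 110 CPM with DMSO. In DND-41 it split by library number, with 99.6 and 34.3 CPM in the libraries labelled ACBI-1, against 97.6 and 40.5 CPM in those labelled DMSO. By this measure the neighbours were not each other's nearest genes: TMC6 ranked 151 for TMC8 and TMC8 ranked 210 for TMC6, at r = 0.927. CORO1A ranked 61 for TMC8 (r = 0.957) and 199 for TMC6 (r = 0.930), and CIB1 ranked 1919 for TMC8 (r = 0.574) and 625 for TMC6 (r = 0.835).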

How the data were processed

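The submitters' processing notes name the hg19 build, the aligner STAR 2.5.2a, the counter featureCounts and, for the comparison, DESeq2 1.12.4; strand setting, annotation release and treatment of multi-mapping reads are not given in the sources used here. The authors deposited raw counts for 63677 genes per line and, in 1 table per line, a log2 fold change with its standard error, a Wald score, a p-value with its adjusted p-value, and a mean signal (scaled count). All per-sample columns were mapped to samples, with 0 left unused.

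CPM were computed from counts and TMM-adjusted totals of all 8 libraries. Each comparison was fitted on its own over all genes with edgeR 4.0.16 in R 4.3.3 (filterByExpr, quasi-likelihood F-test, 2-sided) and adjusted by Benjamini and Hochberg at 0.05; SE are those of the log2 fold changes. DESeq2 1.42.0 and the other alternatives are in the closing section. The steps were tested on simulated counts. Library numbers were not taken as pairs, since the labels name no shared batch or day.

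The members and gene lists were chosen with earlier results of these data known. Beside the pair, up to 3 genes per list with the smallest MOLT-4 adjusted p and at least 5 CPM in a group, the 5 genes most like each member and the 5 protein-coding neighbours on either side were named. The deposited DND-41 table's agreement with the library numbers was checked within 0.001 log2. Exon lengths came from GENCODE 29, which held 52526 of the identifiers. No protein sequence was used here.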

Additional observations from a re-analysis of the deposited data

How the results depend on the processing

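Both MOLT-4 values of the pair kept their sign under every alternative run. Leaving out 1 library gave log2 fold changes of -6.22 to -5.86 for TMC8, and scaling to total counts gave -2.97 for TMC6. Genes called higher in MOLT-4 were 2394 with DESeq2, 2560 without a low-count filter and 250 with all 8 libraries in 1 fit, against 4120, and lower 294 in that last fit, against 4413. With total-count scaling the median of all genes was 0.13 in MOLT-4, against 0.01 (5804 higher, 3031 lower), and -0.18 between the lines, against -0.02 (2135 higher, 3324 lower).

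With the library number as a block, DND-41 as labelled had 777 higher and 572 lower genes, against 0 each, with TMC8 at 0.17 (edgeR adjusted p 0.0219) and TMC6 at 0.06 (0.727). Deviations from the group means correlated at 0.909 between libraries of the same number in DND-41 and at 0.00287 in MOLT-4. Between the lines the block gave TMC6 1.04. Leaving out 1 library in labelled DND-41 gave TMC8 -1.16 to 1.57 and TMC6 -1.26 to 1.118, CIB1 -1.34 to 0.89 and CORO1A -1.25 to 0.999, none of them past the threshold.

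Between the lines, lower genes were 1700 without a filter, against 2629; leaving out 1 library gave 1168 to 5842 higher and 994 to 5474 lower genes, TMC6 0.25 to 1.87 and TMC8 -0.55 to 1.59. Per kilobase the TMC8 share was 81.9% and 81.4% in DND-41 labelled ACBI-1 and DMSO, and 26.2% and 73.2% in MOLT-4 with ACBI-1 and DMSO. With 1 library left out, the share of counts was 73.9% to 74.8% in DND-41 labelled ACBI-1, 67.7% to 74.9% in DND-41 labelled DMSO, 16.6% to 19.8% in MOLT-4 with ACBI-1 and 62.5% to 63.9% in MOLT-4 with DMSO.

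Named genes near 0 in MOLT-4 changed sign. With total scaling SLC30A1 was 0.0811, MT2A 0.0723 and SYNGR2 0.0159, and without a filter BIRC5 was -0.00791. With 1 library left out SLC30A1 was -0.109 to 0.0332, TRADD -0.00755 to 0.199, MT2A -0.166 to 0.0665, STK4 -0.0130 to 0.0657 and BIRC5 -0.00233 to 0.0317. The cause of these shifts was not tested. With 2 libraries per group and SE of 0.967 and 0.877, the labelled DND-41 values of TMC8 and TMC6 are not precise.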
